A study of Mus musculus with 90 samples.

Results

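Bone morphogenetic proteins (BMPs) and the proteins that hold them in check were followed here through 9 genes of a mouse RNA-seq series on muscle stromal cells and the mechanically gated channel Piezo1. The genes were Bmp2, Bmp4, Bmp5 and Bmp6, which encode classical signalling ligands, Bmp3 and Gdf10, which encode the divergent BMP3-type ligands, Bmp1, which encodes a secreted metalloproteinase and no ligand, and Grem1 and Chrdl1, which encode secreted antagonists. They were taken by gene symbol from the count table, and all 9 were found among its 55011 symbols.

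BMP ligands are secreted dimers that bind pairs of type I and type II receptor kinases, which phosphorylate SMAD transcription factors and so raise target genes such as Id1, Id2 and Id3. Antagonists of the gremlin and chordin families bind the ligands outside the cell, and Bmp1-type proteinases cut chordin as well as the ends of fibrillar procollagens, so the same enzyme bears on both BMP signalling and matrix assembly. In skeletal muscle, BMP signalling is known to maintain muscle mass and to act on satellite cells during repair, and stromal cells between the fibres are a source of several of these proteins.

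The series held 90 libraries in 29 groups, each compared within its own cohort. Of these, 44 were made from small pools of mesenchymal stromal cells of hindlimb muscle (MmSCs), which had been sorted for PDGFRa and Sca1 and against the endothelial and blood markers CD31 and CD45. They came from mice after acute exercise (AEX) or exercise training (EXT), each against its own sedentary (SED) mice, with 3 libraries a group, and the mice were wild type per the titles and 8 to 10 weeks old. A further cohort crossed AEX and SED with genotype, mutant (Pdgfra-Cre with Piezo1 f/f) against WT (Pdgfra-Cre with Piezo1+/+), and another held mutant and WT MmSCs 1 day after cardiotoxin (CTX), a venom toxin that destroys muscle fibres. All mice of both genotypes carried Pdgfra-Cre, which is active in stromal cells. Cultured MmSCs, wild type per the titles, received the Piezo1 agonist Yoda1 at 25 µM for 2 h (2 libraries) against vehicle (3 libraries), or, in a separate cohort whose labels give no genotype, vehicle or Yoda1 for 4 h or 6 h (3 libraries each). Whole tissue came from mutant and WT mice: tibialis anterior (TA) muscle 1, 3 and 7 days after CTX injected into it (4, 3 and 3 libraries per genotype), uninjured quadriceps, uninjured heart, heart 3 days after CTX injury of skeletal muscle (3 libraries per group) and liver (4 per group).

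MmSC libraries held 1806248 to 10258234 counts, muscle libraries 4051973 to 10226407 and those of heart or liver 27461930 to 38376123. Summed levels of 11 stromal markers ran from 53380 to 208935 CPM (counts scaled to the library total and its TMM factor) in MmSCs, and 7 endothelial and 7 macrophage markers summed to at most 38.6 and 29.2 CPM there. The marker lists for muscle fibres, heart muscle and liver were present in their own tissues. Piezo1 itself was not lower in mutant than in WT MmSCs at rest (62.2 ± 15.4 against 42.8 ± 4.49 CPM, SD, n = 3 each) and measured 53.6 ± 1.51 against 65.1 ± 5.35 CPM after CTX. A count over the whole gene does not reveal which exons are left after Cre. Mutant therefore stands here only for samples that the titles or library names call FL or, in TA muscle, KO. In the cohort with both genotypes and AEX, titles and library names disagreed for all 12 samples, so libraries were assigned to their group by library name and are called a, b and c. In the AEX cohort, libraries 1 and 2 of both AEX and SED held fewer than 50 reads of Y-linked genes, and library 3 of both held more. Whether replicates came from different mice is not stated, and p-values therefore rest on the spread between libraries, which may be technical. In bulk RNA, fewer cells of a type and less RNA per cell cannot be told apart.

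Called means an adjusted p under 0.05, by the quasi-likelihood test of edgeR with the Benjamini-Hochberg method over every gene tested in the comparison. Fold changes are given as log2 of the first-named group over the second, with their standard error (SE).

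In mm10 with GENCODE M21, Gdf10 lies on chromosome 14 from 33923587 to 33937983, and Bmp4 and Bmp1 lie on the minus strand of the same chromosome, from 46383520 to 46390669 and from 70474558 to 70520234. Bmp2 (chromosome 2, 133552159 to 133562885), Bmp3 (chromosome 5, 98854415 to 98884396), Bmp5 (chromosome 9, 75775364 to 75900310) and Bmp6 (chromosome 13, 38345107 to 38500302) are on plus strands. Grem1 (chromosome 2, 113746164 to 113758646) and Chrdl1 (chromosome X, 143285674 to 143394262) are on minus strands. Levels per kb use the summed exon length of this annotation, and which annotation the authors counted on is unknown here. Exons on the opposite strand overlap those of Bmp6 (Txndc5, group means of 24.0 to 296.5 CPM), Bmp5 (Gm26903, at most 0.596 CPM) and Bmp4 (Gm15217, at most 0.44 CPM). The sources used here do not say whether counting used strand, so reads of Bmp6 and Txndc5 cannot be told apart.

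Gdf10 and Bmp4 were called in the same direction in 2 comparisons of injured TA muscle below. Both fell in WT muscle at day 3 against day 1, where Bmp2 fell too and 26.8% of all genes were called. Both rose in mutant muscle at day 7 against day 3, where Bmp1 rose too and 52.7% of all genes were called. The shared calls are thus not particular to this pair. The 250 bases before the starts of Gdf10 and Bmp4 are shown because of these calls. The windows are from RefSeq (GRCm38.p6), which held one for 5 of the 9 genes (Bmp4, Bmp5, Bmp6, Gdf10 and Grem1), and capitals mark a GC box, GGGCGG on either strand.
Gdf10, chr14:33923337-33923586, plus strand: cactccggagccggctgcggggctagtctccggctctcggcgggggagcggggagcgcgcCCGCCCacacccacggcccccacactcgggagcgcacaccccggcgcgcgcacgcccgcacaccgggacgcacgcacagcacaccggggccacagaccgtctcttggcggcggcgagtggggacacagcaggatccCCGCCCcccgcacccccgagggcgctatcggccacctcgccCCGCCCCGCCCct
Bmp4, chr14:46390670-46390919, minus strand: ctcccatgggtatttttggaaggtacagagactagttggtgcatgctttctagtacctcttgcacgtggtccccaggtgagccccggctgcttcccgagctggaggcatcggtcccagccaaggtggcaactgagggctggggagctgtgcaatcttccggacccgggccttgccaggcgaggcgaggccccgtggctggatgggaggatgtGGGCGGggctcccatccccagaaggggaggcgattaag
The Gdf10 window was 78.8% G and C and held 4 GC boxes, the last 2 of which overlap by 1 base. The Bmp4 window was 63.2% G and C and held 1. Among 32851 windows of the same length the median was 52.4% G and C, and 32.7% held at least 1 GC box. Neither window held the BMP response element core GGCGCC (9.59% of all windows), the SMAD palindrome GTCTAGAC (0.167%), the AP-1 site TGANTCA (6.75%), the cyclic AMP response element TGACGTCA (1.55%) or the TATA box TATAAA (12.4%), each searched on both strands. A match of letters is no evidence of a bound factor.

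Per kb of exon, Bmp1, Gdf10, Bmp4 and Bmp2 were the most abundant of the 9 genes in MmSCs. Group means of Bmp1 ran from 22.7 to 85.2 CPM per kb, of Gdf10 from 13.4 to 83.9, of Bmp4 from 6.14 to 75.4 and of Bmp2 from 20.6 to 69.7. Chrdl1 (1.46 to 20.8 CPM per kb) and Bmp5 (3.84 to 13.9) came next, and Bmp6 (0.803 to 3.93) and Bmp3 (0.193 to 3.52) were lowest among those that could be tested. Whole tissue held less of most of them: in TA muscle, group means of Gdf10 were 1.19 to 2.58 CPM per kb and of Bmp1 5.22 to 10.6.

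**Figure D1:**
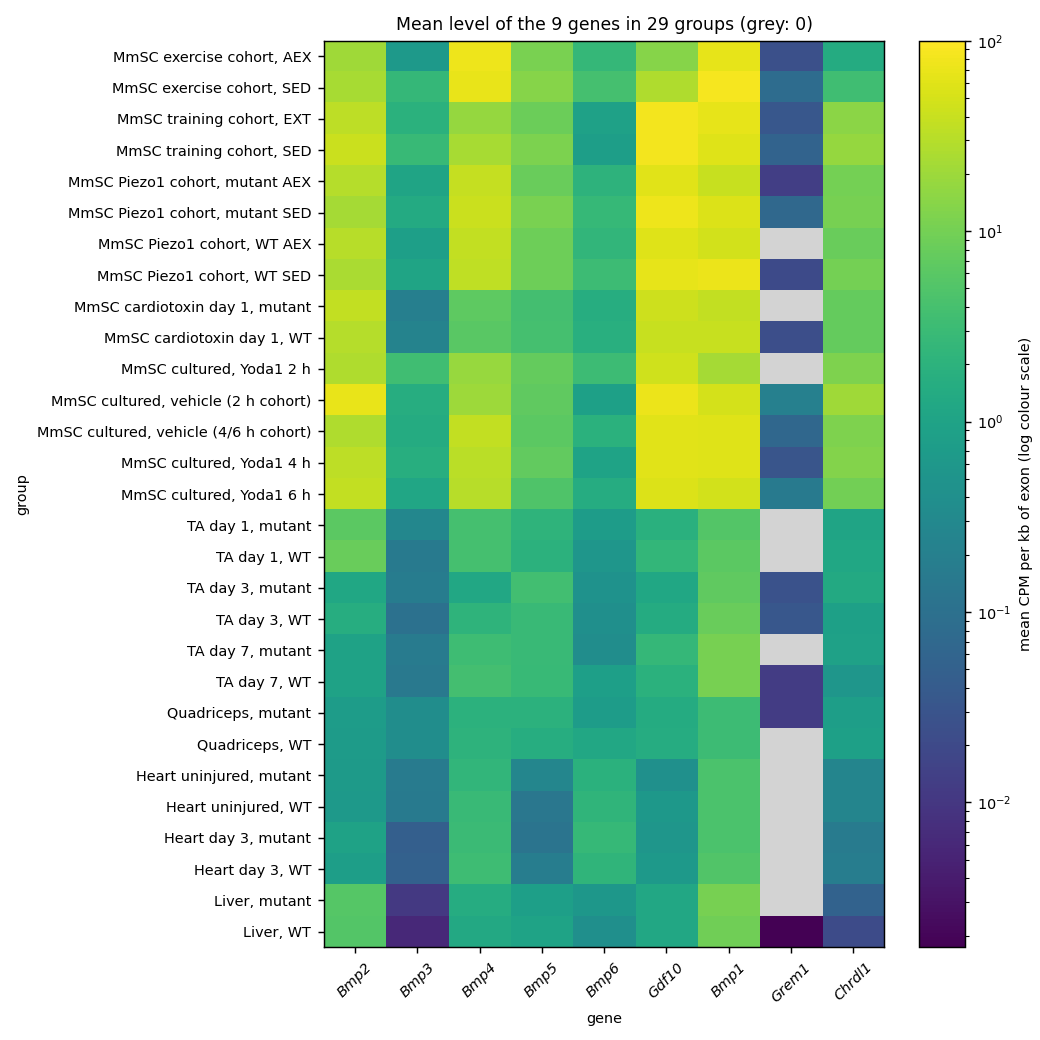
Mean level of the 9 genes in each of the 29 groups, as CPM per kb of exon on a log colour scale, with genes across and groups down. The rows of MmSC groups are brighter than the rows of whole tissue for Bmp1, Bmp4 and Gdf10, and Grem1 is at or near 0 throughout (grey where its mean was 0).

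Among the 15 MmSC groups, few neighbours in the order of mean levels differed by more than their SDs together. Bmp2 was highest in vehicle-treated cells of the 2 h Yoda1 cohort (248 ± 11.5 CPM), a step above the next group (SED mice of the training cohort, 149 ± 44.8 CPM), and no later step down to AEX (73.1 ± 28.9 CPM) exceeded both SDs. Bmp4 was highest in the AEX cohort (169.5 ± 70.3 CPM after AEX and 155 ± 13.1 CPM in SED) and lowest after CTX (14.8 ± 2.12 CPM in mutant and 13.8 ± 0.895 CPM in WT MmSCs), a step below the next group (EXT, 39.0 ± 3.43 CPM). Bmp3 was also lowest after CTX, at 1.21, 0.869 and 2.22 CPM in mutant and 2.28, 1.203 and 1.71 CPM in WT libraries, against 4.69 CPM in the next lowest group, AEX. Bmp5 showed no step larger than both SDs. Cohorts were fitted separately, so these orders across cohorts carry no test, and cohort and treatment cannot be told apart in them.

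Gdf10 and Chrdl1 were ordered alike. Both were lowest in the AEX cohort, and across the 15 MmSC group means their log2 levels correlated at r = 0.941, the highest of the 28 pairs among the 8 genes. The points share cohorts, and the value is a description.

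Grem1, an antagonist of Bmp2 and Bmp4 best known from limb buds and gut stroma, was at 0 in 66 of the 90 libraries, and had 1 to 3 counts in 19 others. Its highest count was 9, in a library of vehicle-treated MmSCs, and its sum over all 90 libraries was 70. A count of 0 allows up to 3 counts, or 0.0782 to 1.66 CPM depending on the library. Grem1 passed the filter on low counts in no comparison and was not tested.

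The other 8 genes were tested in up to 23 comparisons, and Bmp2 was called most often, lower in 5 and higher in 2. Bmp1 was called higher in 4 and lower in 2, Gdf10 higher in 1 and lower in 3, Bmp4 higher in 1 and lower in 2, Chrdl1 lower in 2, Bmp3 lower in 1 and Bmp5 higher in 1. Bmp6 was called in none of its 23, where its unadjusted p was under 0.05 in 4, and DESeq2 called it in none. Of the 10 comparisons between genotypes, none called any of the genes. Of all genes tested, 26.8% to 52.7% were called between days in TA muscle, 5.71% to 13.2% after Yoda1 and 0.162% to 0.992% after exercise. Between genotypes, 0% to 8.98% of all genes were called, depending on the comparison. Several of these comparisons share libraries and are not independent.

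**Figure D2:**
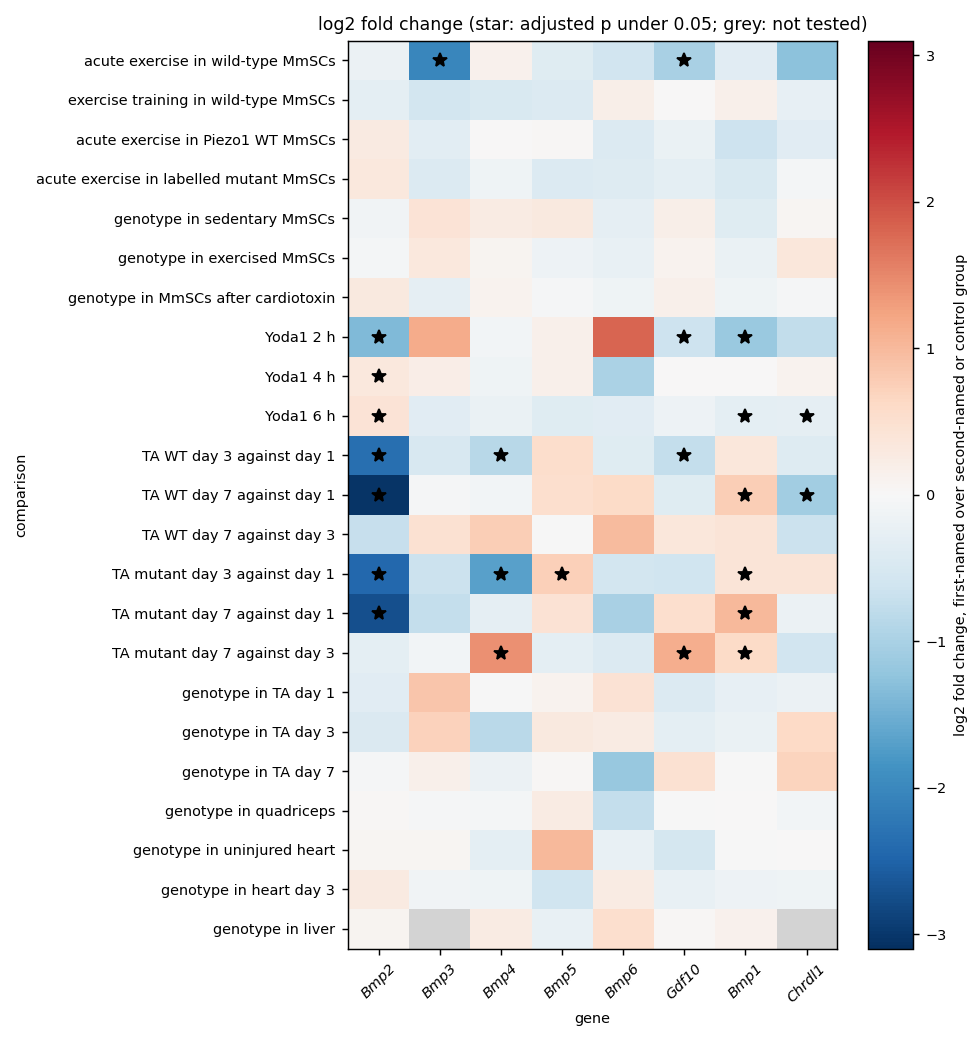
log2 fold change of the 8 tested genes (across) in 23 comparisons (down), with red for higher and blue for lower in the first-named or treated group, stars for adjusted p under 0.05 by edgeR's quasi-likelihood test, and grey for not tested. The strongest colours are those of Bmp2 in TA muscle at days 3 and 7 against day 1, and no star stands in a genotype row.

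Acute exercise was followed by lower Bmp3 and Gdf10 in wild-type MmSCs, the ligands of the BMP3 type, of which BMP3 itself is known to oppose classical BMP signalling. Bmp3 measured 4.59, 4.41 and 5.08 CPM after AEX and 27.1, 15.9 and 14.8 CPM in SED mice. The AEX libraries lay close together, and every SED library was far above them. Bmp3 fell (log2 -2.03, SE 0.298, edgeR adjusted p = 0.0211). Gdf10 measured 68.4, 64.0 and 76.7 CPM after AEX against 149.6, 142 and 127 CPM in SED, again without overlap (log2 -0.998, SE 0.133, adjusted p = 0.0203 by edgeR). These were 2 of the 8 genes tested, where 0.736% of all 12777 genes were called in either direction. Both calls were lost without SED library 1 (adjusted p = 0.0954 for either gene), without SED library 2 (0.101 for either) and without AEX library 2 (0.0521 for Bmp3 and 0.0501 for Gdf10), and that of Bmp3 also without AEX library 3 (0.051). The log2 values kept their sign in each case, from -1.70 to -2.16 for Bmp3.

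Of the antagonists, Chrdl1, a chordin-like protein that binds BMP4, had 8.36, 11.3 and 9.85 CPM after AEX against 32.9, 26.2 and 12.4 CPM in SED. Every AEX library lay below every SED library, but SED library 3 came close to them, and edgeR gave adjusted p = 0.102 (log2 -1.28, SE 0.325). It was called by DESeq2 (adjusted p = 0.0113), with no filter on low counts (6.94e-05) and without SED library 3 (0.0421). That library is the only SED library with at least 50 reads of Y-linked genes, and Chrdl1 lies on chromosome X. Without SED library 3, the SED group holds only libraries below 50 such reads, while AEX keeps its library 3. Adding a term for Y-linked reads to the fit changed the call of no member in this cohort. Bmp1 measured 606, 532 and 634 CPM after AEX against 683, 764 and 821 CPM in SED. These did not overlap either, at log2 -0.35 and edgeR adjusted p = 0.297. Bmp4 ranged widely after AEX (244, 104 and 161 CPM, against 155, 168 and 142 CPM in SED) and was not called. Bmp6 measured 7.05, 10.9 and 12.2 CPM after AEX against 13.4, 16.8 and 15.8 CPM in SED, lower in each AEX library than in each SED library but not called (log2 -0.60, edgeR adjusted p = 0.303). Bmp2 (102, 72.0 and 44.8 CPM after AEX against 73.3, 106 and 70.1 CPM in SED) and Bmp5 (60.7, 42.9 and 27.0 CPM against 82.2, 52.6 and 33.3 CPM) overlapped between the groups.

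Among 11 tested other antagonists, Nbl1, a DAN-family BMP antagonist, fell (log2 -1.42), and of 17 Bmp1-type proteinases, enhancers and substrates only Fn1, fibronectin, fell (log2 -1.19). None of the other BMP ligands, receptors, SMADs or target genes tested was called, beside 0.736% of all genes. In this cohort 6 tenocyte markers summed to 1787 to 4719 CPM after AEX against 313.6 to 976.5 CPM in SED. None of the 4 tenocyte markers tested was called, and 2 of 11 stromal markers were called lower. Their part in these differences was not tested.

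**Figure D3:**
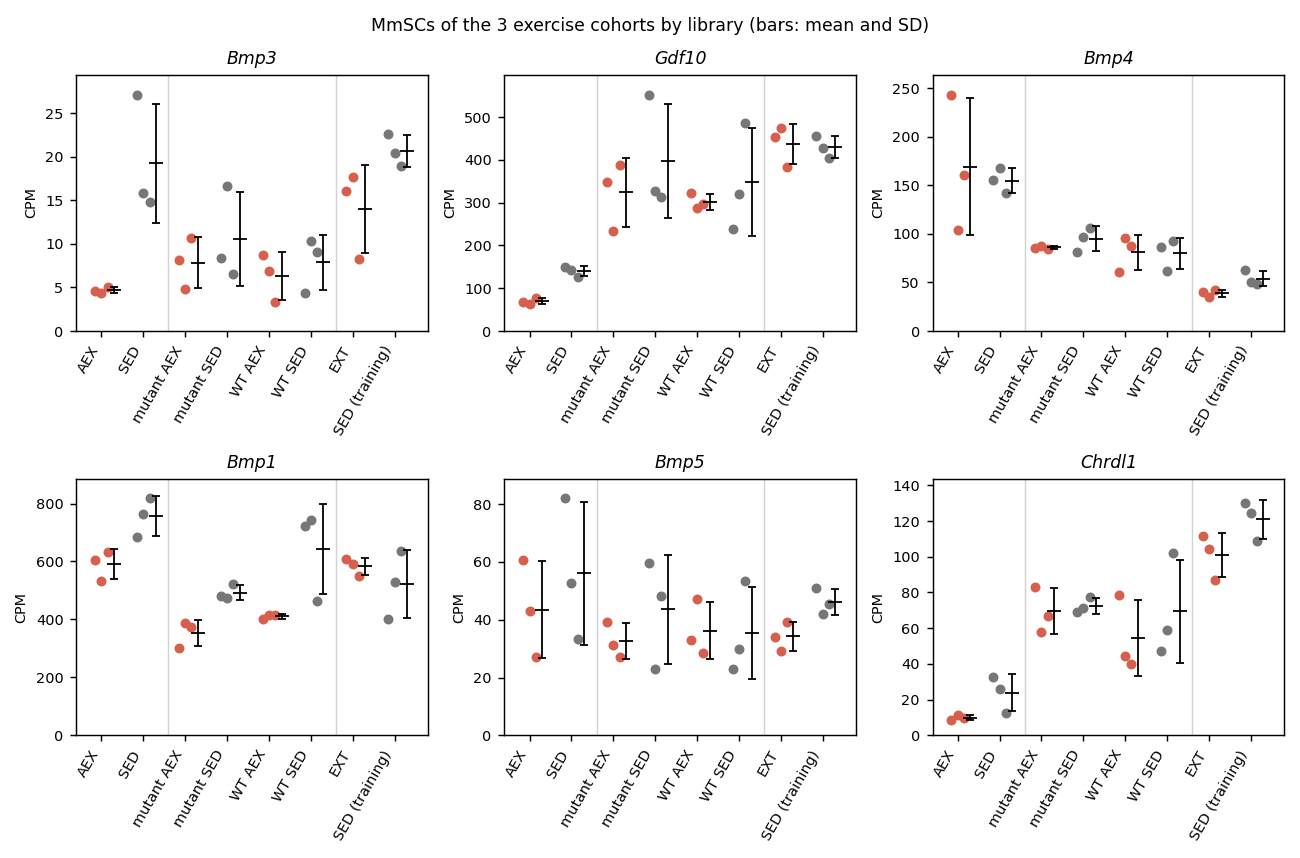
CPM per library of 6 genes in MmSCs of the AEX cohort (left), the cohort with both genotypes (middle) and the training cohort (right), red for exercised and grey for sedentary, bars for mean and SD. Bmp3 and Gdf10 separate AEX from SED in the left cohort, and Bmp1 lies lower after AEX than in SED in each genotype of the middle cohort.

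After exercise training none of the 8 genes was called in wild-type MmSCs, where 0.484% of 12802 genes were. The count was also 0 by DESeq2, and 4 genes had an unadjusted p under 0.05, all toward lower values. Bmp4 measured 39.7, 35.2 and 42.0 CPM after EXT and 62.8, 50.8 and 48.2 CPM in SED mice, and Bmp5 34.0, 29.3 and 39.3 CPM after EXT and 50.9, 42.0 and 45.4 CPM in SED. In both genes every EXT library lay below every SED library (log2 -0.47, SE 0.142, edgeR adjusted p = 0.17 for Bmp4, and log2 -0.43, SE 0.149, adjusted p = 0.243 for Bmp5). Gdf10, at 453, 475 and 383 CPM against 455, 428 and 405 CPM, overlapped between EXT and SED, with log2 0.02. Bmp3 measured 16.1, 17.7 and 8.22 CPM after EXT against 22.6, 20.4 and 19.0 CPM in SED (log2 -0.56, adjusted p = 0.373).

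In the cohort with both genotypes, Bmp1 came nearest to a call after AEX. WT libraries measured 402, 416 and 414 CPM after AEX against 464, 723 and 742 CPM in SED, and mutant libraries 301, 386 and 372 CPM after AEX against 482, 475 and 521 CPM in SED. AEX and SED did not overlap in either genotype, although SED library a of the WT group lay near the AEX level. In WT MmSCs Bmp1 had log2 -0.65 (SE 0.173, edgeR adjusted p = 0.081), so 0 of 8 genes were called there beside 0.992% of 14821 genes. Only Bmp1 had an unadjusted p under 0.05, and DESeq2 called it (adjusted p = 0.00919), as did edgeR with no filter on low counts (0.0115) or without WT SED library a (0.00563). In mutant MmSCs Bmp1 had log2 -0.48 (SE 0.173, edgeR adjusted p = 0.451), again the single unadjusted p under 0.05, and 0 of 8 were called by edgeR or DESeq2 beside 0.162% of all genes. The response of Bmp1 did not differ detectably between genotypes (interaction log2 0.17, SE 0.244, edgeR adjusted p = 0.963), and 0% of genes showed a called interaction.

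Bmp3 and Gdf10 did not pass the test after AEX in this cohort. Bmp3 had 8.71, 6.84 and 3.33 CPM after AEX and 9.07, 4.33 and 10.3 CPM in SED in WT, and Gdf10 had 322, 286 and 297 CPM after AEX and 485, 237 and 321 CPM in SED. Mutant libraries had 8.10, 4.82 and 10.7 CPM of Bmp3 after AEX and 8.42, 16.7 and 6.51 CPM in SED. AEX and SED overlapped in each case. The AEX responses of WT MmSCs of the 2 cohorts, compared by a test added after their results were known, differed for neither gene after adjustment (Bmp3 log2 -1.67, SE 0.549, edgeR adjusted p = 0.709, and Gdf10 log2 -0.76, SE 0.281, adjusted p = 0.775). Their unadjusted p were 0.00709 and 0.0146, 0% of 14503 genes were called in it, and DESeq2 called none of the 8. Among pathway genes in WT MmSCs, the extracellular modulators Kcp (log2 -1.17) and Htra1 (-0.84) and the Bmp1-type substrates Col1a2 (-1.09) and Fn1 (-0.89) fell, and Lox, the collagen crosslinking enzyme that Bmp1 activates, rose (log2 1.77). Muscle stem cell markers summed to 316.9 to 384.7 CPM after AEX and 194.3 to 219.4 CPM in SED of the WT group. Only 1 of these 6 markers passed the filter, without a call, and Myf5 and Myod1 were at 0 in every library of both groups. In the same comparison 1 tenocyte marker was called higher and 1 stromal marker lower. Red blood cell markers ran from 115.2 to 155.3 CPM after AEX and from 1.05 to 828.7 CPM in SED. In mutant MmSCs tenocyte markers summed to 2086 to 2368 CPM after AEX and 1384 to 2046 CPM in SED, with none called. Their part in the Bmp1 values was not tested.

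Genotype gave no call among these genes in MmSCs. In SED mice 0 of 8 were called (beside 0.00675% of all genes), with an unadjusted p under 0.05 for Bmp1 alone (log2 -0.39, adjusted p = 0.643). After AEX 0 of 8 were called beside 0% of all genes, and none had an unadjusted p under 0.05. After CTX 0 of 8 were called beside 1.79% of 12957 genes, again with none under 0.05 unadjusted, and DESeq2 called none in any of the 3 comparisons. Gdf10 measured 249.5, 226 and 212 CPM in mutant and 163, 177 and 276 CPM in WT MmSCs after CTX. The groups overlapped because of WT library 3, and Gdf10 was not called (log2 0.158, SE 0.202, edgeR adjusted p = 0.812). A call toward higher Gdf10 in mutant cells appeared only without that library (log2 0.42, edgeR adjusted p = 0.0201). Of 16 tested Bmp1-type substrates and partners, 4 collagen genes fell in mutant MmSCs after CTX, led by Col3a1 (log2 -0.49) and Col1a2 (-0.43). Macrophage markers summed to 14.7 to 17.0 CPM in mutant and 8.22 to 9.52 CPM in WT libraries there, and their part was not tested.

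Yoda1 for 2 h was followed by lower Bmp2, Bmp1 and Gdf10 in cultured MmSCs. Bmp2 measured 102 and 87.6 CPM with Yoda1 against 236, 259 and 249 CPM with vehicle. Both treated libraries lay well below every vehicle library, and Bmp2 fell (log2 -1.38, SE 0.164, adjusted p = 0.00102 by edgeR). Bmp1 fell likewise, with 176 and 226 CPM against 449, 414 and 469.7 CPM (log2 -1.15, SE 0.164, adjusted p = 0.00231 by edgeR). Gdf10 measured 252 and 228 CPM against 362, 369.5 and 395 CPM, a smaller but separate difference (log2 -0.64, SE 0.145, adjusted p = 0.018 by edgeR). Its call was lost without vehicle library 1, 2 or 3 (adjusted p = 0.0899, 0.0592 and 0.098).

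These were 3 of 8 genes tested, beside 11.2% of 12782 genes called. Chrdl1 had 102 and 62.3 CPM with Yoda1 against 175, 129.7 and 118 CPM with vehicle, without overlap and without a call (log2 -0.76, edgeR adjusted p = 0.075). DESeq2 called it (adjusted p = 0.0306), as did edgeR with no filter (0.00433) or without Yoda1 library 1 (0.000576). Bmp3 lay the other way, at 25.8 and 26.4 CPM against 14.6, 14.6 and 5.83 CPM, and did not pass (log2 1.16, adjusted p = 0.113). Bmp6 had 4.29 and 20.1 CPM with Yoda1 against 3.64, 2.18 and 4.37 CPM, so that 1 library alone stood high (adjusted p = 0.137, and 0.00166 without Yoda1 library 1, when that library is all that is left). The 2 Yoda1 libraries resembled each other less (r = 0.862 of log2 levels across genes) than those of any other group (0.922 to 0.989), and they include the shallowest of the series, with 1806248 counts.

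Part of the collagen-processing genes fell as well, where 11.2% of all genes tested were called in either direction. Of 17 Bmp1-type proteinases, enhancers and substrates, 9 fell and 1 rose, with a median log2 of -0.72 beside -0.03 over all genes tested. Col5a2 (log2 -1.63) and Col3a1 (-1.44), fibrillar collagens with propeptides, and Col5a1 (-1.01) and Postn (-0.99) fell most. Among other BMP ligands Bmp8a fell (log2 -2.89) and Gdf15, a stress-induced relative, rose (1.65). The type I receptor Acvrl1 (log2 -0.996) and the extracellular modulator Kcp (-1.47) fell, and the SMAD repressor Skil rose (1.01). None of 12 tested BMP-SMAD target genes was called. Tenocyte markers summed to 3088 to 4036 CPM with Yoda1 against 4219 to 5467 CPM with vehicle, with 2 called lower, and muscle stem cell markers to 597.7 to 735.5 CPM against 1027 to 1189 CPM, with 1 called lower. Only 2 of the 6 muscle stem cell markers passed the filter, and Myf5 was at 0 in every library of both groups. Mural and Schwann cell markers also summed lower without a call, and 2 of 11 stromal markers were called higher and 2 lower. Their part in these differences was not tested.

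At 4 h and 6 h, in the second culture cohort, Bmp2 lay higher than with vehicle. It measured 86.6, 104 and 96.9 CPM with vehicle, 119, 107 and 135 CPM at 4 h and 112, 124 and 147 CPM at 6 h, and neither time overlapped with vehicle. Bmp2 rose at 4 h (log2 0.33, SE 0.0940, adjusted p = 0.0296 by edgeR) and at 6 h (log2 0.41, SE 0.0940, adjusted p = 0.00208 by edgeR), in comparisons that share the vehicle libraries. The 4 h call was lost without vehicle library 1 or 3 (adjusted p = 0.173 and 0.0666), without 4 h library 1 or 3 (0.0528 and 0.228) and with no filter on low counts (0.0565). It was 1 of 8 genes called at 4 h, beside 5.71% of 13756 genes.

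At 6 h 3 of 8 genes were called, beside 13.2% of all. Bmp1 measured 502, 480.4 and 589.5 CPM with vehicle, 506, 529 and 539.5 CPM at 4 h and 418, 404 and 444 CPM at 6 h, so that 6 h lay below and 4 h amid the vehicle libraries. Bmp1 fell at 6 h (log2 -0.31, SE 0.0620, adjusted p = 0.000417 by edgeR). Chrdl1 had 82.6, 73.8 and 87.7 CPM with vehicle, 86.4, 91.9 and 82.5 CPM at 4 h and 74.3, 61.7 and 64.8 CPM at 6 h, with 1 library at 6 h inside the vehicle range. Its edgeR call at 6 h was marginal (log2 -0.28, SE 0.0960, adjusted p = 0.0493) and was lost by DESeq2 (adjusted p = 0.0661), with RLE scaling (0.0501) and without vehicle library 1 or 3 (0.119 and 0.206) or 6 h library 2 or 3 (0.223 and 0.159). Gdf10, lower at 2 h, measured 323, 327 and 319 CPM with vehicle, 326, 335 and 311 CPM at 4 h and 283, 269.8 and 319.5 CPM at 6 h (log2 -0.15, edgeR adjusted p = 0.101 at 6 h, and 0.0227 without 6 h library 3). Bmp6 measured 6.74, 7.52 and 8.40 CPM with vehicle, 3.27, 2.58 and 5.71 CPM at 4 h and 6.27, 4.43 and 7.12 CPM at 6 h, with the 4 h libraries below vehicle (log2 -0.98, edgeR adjusted p = 0.0568, and 0.0258 without 4 h library 3). Bmp4 and Bmp5 were called at no time. Bmp4 measured 47.5 and 36.4 CPM with Yoda1 for 2 h against 38.1, 53.0 and 44.2 CPM with its vehicle, and in the second cohort 75.8, 78.4 and 88.2 CPM with vehicle, 66.1, 81.8 and 73.1 CPM at 4 h and 64.3, 69.7 and 75.4 CPM at 6 h. Bmp5 measured 31.5, 23.5 and 22.8 CPM with vehicle, 33.8, 28.4 and 23.8 CPM at 4 h and 19.0, 19.3 and 21.9 CPM at 6 h. For both genes the 6 h libraries lay below every vehicle library, at unadjusted p = 0.0402 and 0.0352 (edgeR adjusted p = 0.173 and 0.159).

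**Figure D4:**
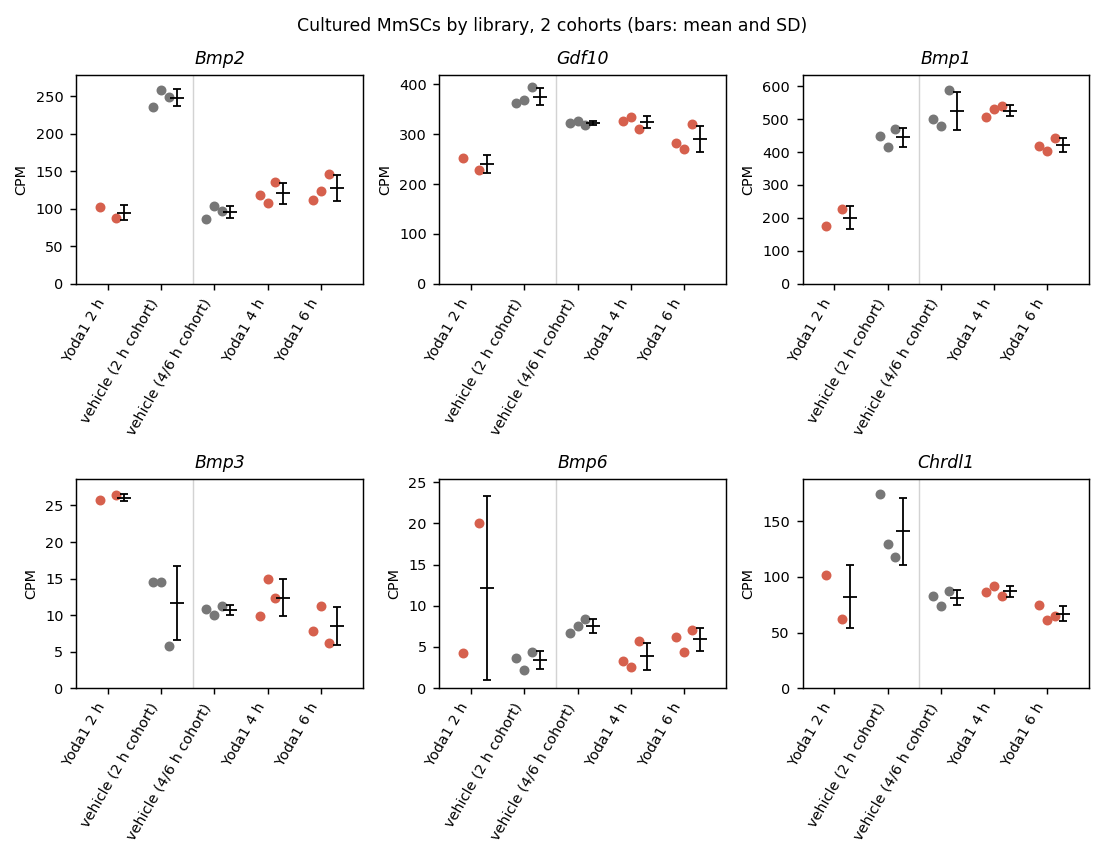
CPM per library of 6 genes in cultured MmSCs, with Yoda1 in red and vehicle in grey, the 2 h cohort left and the 4 h and 6 h cohort right of the line, bars for mean and SD. Bmp2 with Yoda1 lies below vehicle at 2 h and above vehicle at 4 h and 6 h, and the vehicle levels of the 2 cohorts differ.

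The responses at 2 h and 6 h were also set against each other, each over its own vehicle, in a test added after the results were known. Of 8 genes 3 differed, beside 17.5% of 14799 genes. They were Bmp2 (difference of log2 -1.82, SE 0.188, edgeR adjusted p = 1.24e-05), Bmp1 (-0.87, SE 0.162, adjusted p = 0.00159) and Gdf10 (-0.52, SE 0.142, adjusted p = 0.0184). The Gdf10 call was lost without 6 h library 3 (edgeR adjusted p = 0.061) and with no filter on low counts (0.0944). Bmp3 (log2 1.46, adjusted p = 0.0512) and Bmp6 (2.08, adjusted p = 0.0519) missed the threshold narrowly and passed it by DESeq2 (adjusted p = 0.0216 and 0.0212) and with RLE scaling (0.0428 and 0.046), and 5 genes were called without 2 h Yoda1 library 1, and 5 without library 2. Vehicle cells held 248 ± 11.5 CPM of Bmp2 in the 2 h cohort and 95.6 ± 8.49 CPM in the other (SD, n = 3 each), and the treated cells 95.0 ± 10.5 CPM (n = 2) at 2 h and 128 ± 17.7 CPM (n = 3) at 6 h. Time and cohort cannot be told apart in this difference.

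Extracellular antagonists and modulators were called in both directions in the second cohort. Of all genes tested, 5.71% were called in either direction at 4 h and 13.2% at 6 h. Of 12 tested other antagonists and modulators, 3 rose at 4 h, Nbl1 (log2 0.58), the activin and BMP binder Fst (0.55) and Twsg1 (0.25), and at 6 h Nbl1 rose (0.54) while Bmper (-0.51), Chrd (-0.41) and Fstl1 (-0.30) fell. Of 14 BMP-SMAD target genes, Id3 (log2 -0.41), Id1 (-0.44) and Atoh8 (-1.08) fell at 4 h. At 6 h Id3 (-0.47) and Msx1 (-0.38) fell and Bambi, a target gene that encodes a decoy receptor, rose (0.58). Of 11 receptors and co-receptors at 6 h, Bambi was the 1 that rose and 4 fell, among them Acvrl1 (log2 -0.53), Eng (-0.49) and Acvr1 (-0.43). Of 17 Bmp1-type proteinases, enhancers and substrates 13 fell at 6 h, among them the enhancer Pcolce (log2 -0.53), Col1a2 (-0.52), Col3a1 (-0.49) and Col1a1 (-0.48), with a median log2 of -0.29 beside -0.001 over all genes. At 6 h 8 of 11 stromal markers were called lower too, summing to 108106 to 113551 CPM against 143027 to 155994 CPM with vehicle, and several of them are themselves collagens or proteoglycans. Their part in the lower Bmp1 was not tested.

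In regenerating TA muscle Bmp2 was the gene that moved furthest. In mutant muscle it measured 24.7, 19.1, 23.4 and 22.7 CPM at day 1, 4.99, 2.54 and 5.13 CPM at day 3 and 3.83, 2.74 and 3.52 CPM at day 7. In WT muscle it measured 28.0, 23.5, 24.2 and 38.3 CPM at day 1, 6.25, 5.19 and 5.58 CPM at day 3 and 3.23, 2.61 and 4.44 CPM at day 7. In both genotypes every library of days 3 and 7 lay below every library of day 1. Bmp2 fell at day 3 against day 1 in mutant (log2 -2.44, SE 0.261, adjusted p = 6.58e-08 by edgeR) and WT muscle (log2 -2.33, SE 0.252, adjusted p = 2.41e-07), and stood lower at day 7 against day 1 (log2 -2.73, SE 0.276, edgeR adjusted p = 3.94e-08 in mutant, and log2 -3.05, SE 0.275, adjusted p = 7.16e-09 in WT muscle). Uninjured quadriceps, a separate cohort, held 1.54, 3.27 and 3.05 CPM in mutant and 1.87, 2.99 and 2.697 CPM in WT mice.

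Much of the transcriptome moved over these days, so the counts of called genes stand beside a high background. At day 3 against day 1, 4 of 8 genes were called in mutant muscle (44.6% of 15499 genes) and 3 in WT muscle (26.8%). At day 7 against day 1, 2 were called in mutant (39.2%) and 3 in WT muscle (44.5%). At day 7 against day 3, 3 were called in mutant (52.7%) and 0 in WT muscle (42.5%) by edgeR, where 3 had an unadjusted p under 0.05 and DESeq2 called Bmp4 (adjusted p = 0.0416). Without WT day 7 library 3 edgeR called 2 there (Bmp2 and Bmp4), and 1 each without WT day 7 library 1 or WT day 3 library 1 (Bmp1) and without WT day 7 library 2 (Chrdl1). All TA groups shared one fit, and comparisons that share a day are not independent.

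Bmp4 and Gdf10 had their lowest means at day 3. Bmp4 measured 9.36, 10.2, 7.19 and 8.86 CPM at day 1, 3.27, 2.85 and 2.23 CPM at day 3 and 3.48, 8.22 and 10.3 CPM at day 7 in mutant muscle, where day 3 overlapped with neither other day. In WT muscle Bmp4 measured 9.15, 9.55, 9.81 and 7.22 CPM at day 1, 5.29, 4.13 and 5.46 CPM at day 3 and 9.34, 9.04 and 6.74 CPM at day 7, again with day 3 apart. Bmp4 fell at day 3 against day 1 in mutant muscle (log2 -1.69, SE 0.309, adjusted p = 9.5e-05 by edgeR) and rose at day 7 against day 3 (log2 1.42, SE 0.327, adjusted p = 0.000791). In WT muscle it fell at day 3 (log2 -0.85, SE 0.289, adjusted p = 0.031), a call lost without WT day 3 library 1, 2 or 3 or WT day 1 library 1, 2 or 3 (adjusted p = 0.0506 to 0.136) and with no filter on low counts (0.0756). At day 7 against day 3 it had log2 0.76 and adjusted p = 0.0525 in WT muscle.

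Gdf10 measured 9.78, 10.5, 11.7 and 5.42 CPM at day 1, 7.06, 5.85 and 5.62 CPM at day 3 and 9.75, 16.1 and 14.5 CPM at day 7 in mutant muscle, and 14.6, 12.6, 13.2 and 9.95 CPM at day 1, 7.21, 8.26 and 7.32 CPM at day 3 and 8.83, 13.8 and 6.59 CPM at day 7 in WT muscle. Mutant day 3 lay below day 7 in every library, and WT day 3 below day 1. Gdf10 rose at day 7 against day 3 in mutant muscle (log2 1.13, SE 0.293, adjusted p = 0.00216 by edgeR) and fell at day 3 against day 1 in WT muscle (log2 -0.73, SE 0.270, adjusted p = 0.0475). The WT call was lost without the same 6 libraries as that of Bmp4 (adjusted p = 0.0741 to 0.132) and with no filter (0.0815). In mutant muscle at day 3 against day 1 Gdf10 had log2 -0.61 and adjusted p = 0.0782, and was called without mutant day 1 library 4 (0.0227). The joint test of genotype by day gave edgeR adjusted p = 0.316 for Gdf10 and called none of the 8 genes, as did DESeq2, with no unadjusted p under 0.05, beside 3.89% of all genes.

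Bmp1, the proteinase, went up over the course. It measured 48.8, 50.4, 44.6 and 41.4 CPM at day 1, 66.1, 47.6 and 70.8 CPM at day 3 and 91.5, 75.0 and 111 CPM at day 7 in mutant muscle, and 56.6, 51.6, 54.8 and 59.4 CPM at day 1, 81.9, 62.5 and 69.0 CPM at day 3 and 79.0, 114 and 88.7 CPM at day 7 in WT muscle. Day 7 lay above day 1 in every library of both genotypes. Bmp1 rose at day 7 against day 1 in mutant (log2 1.00, SE 0.160, adjusted p = 2.47e-05 by edgeR) and WT muscle (log2 0.76, SE 0.159, adjusted p = 0.000413). Between days 1 and 3 the call in mutant muscle was marginal (log2 0.41, edgeR adjusted p = 0.0421) and lost without mutant day 3 library 1 or 3 (adjusted p = 0.123 and 0.208), without mutant day 1 library 3 or 4 (0.0802 and 0.0963), with no filter (0.0565) and with a fit to these groups only (0.0757). In WT muscle the same step had adjusted p = 0.102, and 0.0409 with a fit to these groups only. Between days 3 and 7 Bmp1 rose in mutant muscle (log2 0.59, SE 0.171, adjusted p = 0.00516), with 0.0542 without mutant day 7 library 3, and had adjusted p = 0.0603 in WT muscle.

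Many genes for Bmp1-type substrates were higher at days 3 and 7 than at day 1. Of 16 tested Bmp1-type proteinases, enhancers and substrates, 10 rose and 3 fell at day 3 against day 1 in mutant muscle (median log2 1.01, beside 0.004 over all genes), and 11 rose and 2 fell in WT muscle (median 0.97, beside 0.008). Postn, a matricellular protein, had log2 3.09 in mutant and 3.04 in WT muscle, Col5a1 1.90 and 2.05, Col3a1 1.65 and 1.72, and Ltbp1, which binds latent TGF-beta, 2.05 and 1.51. At day 7 against day 1, 10 rose in each genotype, while 1 fell in mutant and 3 in WT muscle. Of all genes, 44.6% in mutant and 26.8% in WT muscle were called at day 3 against day 1, and 39.2% and 44.5% at day 7 against day 1, in either direction. The list did not rise as a whole at day 7 against day 3, with 2 higher and 2 lower in mutant (median log2 0.21) and 1 higher and 2 lower in WT muscle (median -0.22). Of 12 tested antagonists and extracellular modulators, 5 fell and 2 rose at day 3 against day 1 in mutant muscle, led by the falls of Crim1 (log2 -3.72), Fstl3 (-1.29), Dand5 (-1.25) and Twsg1 (-1.04). In WT muscle Fst (-1.18) and Twsg1 (-1.05) fell and Chrd (1.02) and Fstl1 (0.88) rose.

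Bmp5, a ligand close to Bmp6, measured 8.52, 8.90, 7.79 and 9.35 CPM at day 1, 11.0, 18.9 and 13.0 CPM at day 3 and 13.6, 10.1 and 11.7 CPM at day 7 in mutant muscle. In WT muscle it measured 10.00, 8.14, 5.76 and 8.04 CPM at day 1, 14.2, 10.2 and 10.6 CPM at day 3 and 12.4, 9.50 and 12.6 CPM at day 7. Days 3 and 7 lay above day 1 in mutant muscle without overlap, and WT day 3 above WT day 1. Bmp5 rose at day 3 against day 1 in mutant muscle (log2 0.74, SE 0.229, adjusted p = 0.0109 by edgeR), a call lost without mutant day 3 library 2 (log2 0.48, adjusted p = 0.125), and had log2 0.54 and adjusted p = 0.086 in WT muscle.

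Chrdl1 measured 7.13, 7.61, 5.39 and 7.71 CPM at day 1, 8.44, 8.24 and 11.0 CPM at day 3 and 3.48, 9.59 and 5.28 CPM at day 7 in mutant muscle, and 7.93, 8.49, 9.81 and 5.32 CPM at day 1, 6.37, 4.80 and 6.86 CPM at day 3 and 1.70, 5.67 and 3.83 CPM at day 7 in WT muscle. WT day 7 held the lowest libraries, with 1 of its 3 inside the range of day 1. Chrdl1 fell at day 7 against day 1 in WT muscle (log2 -1.07, SE 0.356, adjusted p = 0.0173 by edgeR), a call lost without WT day 7 library 1 (log2 -0.73, adjusted p = 0.116). In mutant muscle the same comparison gave log2 -0.19 and adjusted p = 0.705, and the difference between genotypes over the days was tested jointly, as for Gdf10 (adjusted p = 0.427). Bmp3 and Bmp6 stayed low in TA muscle, at 0 to 3.08 CPM and 0.12 to 5.6 CPM in single libraries, and were called in no TA comparison. Bmp6 had no unadjusted p under 0.05 there, and neither had Bmp3.

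**Figure D5:**
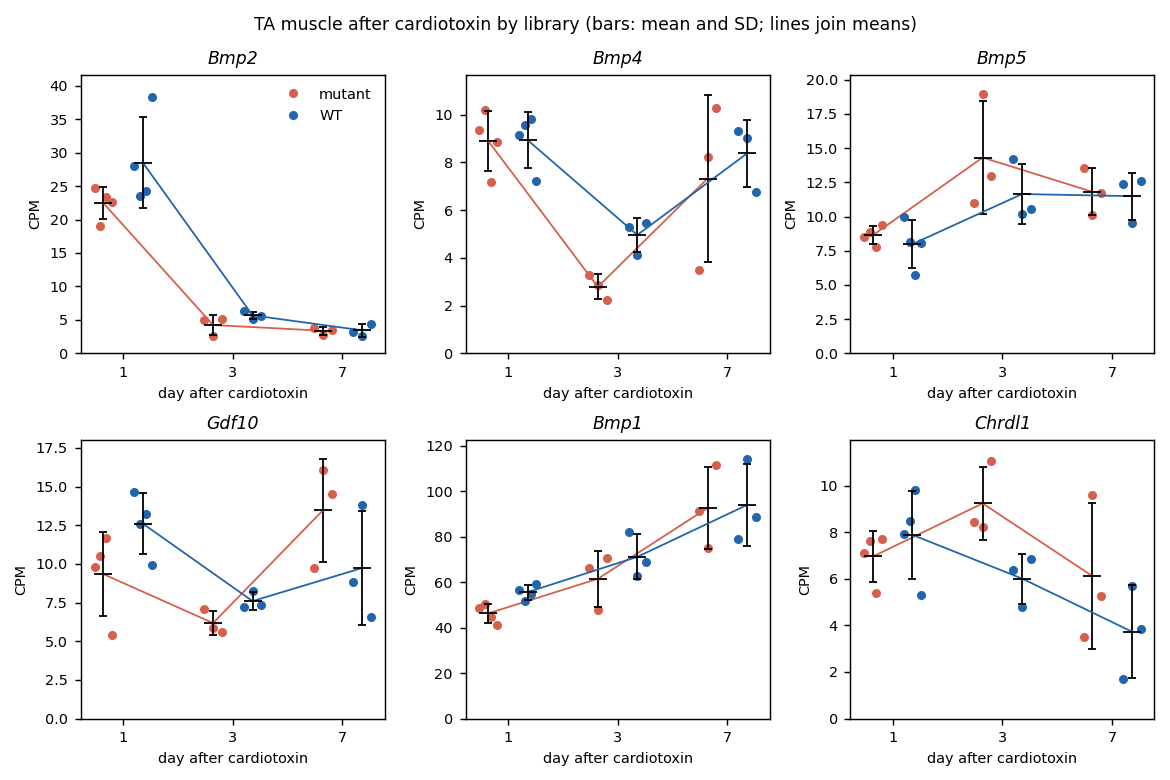
CPM per library of 6 genes in TA muscle 1, 3 and 7 days after cardiotoxin, mutant in red left of WT in blue, with bars for mean and SD and lines through the means. Bmp2 drops after day 1 and Bmp1 climbs to day 7 in both genotypes, and Bmp4 is lowest at day 3.

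Target genes and receptors of the pathway were called at shares near those of all genes in most of these comparisons. At day 7 against day 1 the SMAD targets Id1 (log2 -1.38 in mutant and -1.50 in WT muscle) and Id2 (-1.46 and -1.43) fell, and 5 of 12 tested target genes fell and none rose in each genotype, where 39.2% of all genes in mutant and 44.5% in WT muscle were called in either direction. At day 7 against day 3, 7 of 13 receptors and co-receptors rose in mutant and 6 in WT muscle, among them Hjv (log2 2.85 and 1.58) and Bmpr1a (1.69 and 1.39), and none fell, beside 52.7% and 42.5% of all genes. At day 3 against day 1, 7 of 13 fell and none rose in mutant muscle, led by Acvr2b (log2 -2.41) and Hjv (-2.25), beside 44.6% of all genes, and 2 fell and 1 rose in WT muscle, beside 26.8%. Marker lists of several cell types differed between these days as well. In mutant muscle, 9 fibre markers summed to 73989 to 119847 CPM at day 1 and 4235 to 14733 CPM at day 3, and 7 macrophage markers to 2430 to 3480 CPM and 8561 to 8852 CPM. In WT muscle, the fibre markers summed to 77504 to 97161 CPM at day 1, 33878 to 55896 CPM at day 3 and 192836 to 228765 CPM at day 7, and the macrophage markers to 2665 to 4052 CPM, 6845 to 8899 CPM and 1005 to 1756 CPM on these days. Neutrophil markers summed to 142.9 to 338.9 CPM at day 1, 41.65 to 54.04 CPM at day 3 and 1.37 to 8.53 CPM at day 7 in mutant muscle, and to 137.7 to 238.9 CPM, 40.83 to 68.12 CPM and 6.28 to 11.2 CPM on these days in WT muscle, with 3 or 4 of 4 tested called lower between any of these days. Stromal markers summed to 4673 to 6109 CPM at day 1, 5997 to 9440 CPM at day 3 and 10083 to 12415 CPM at day 7 in mutant muscle. They summed to 6134 to 6508 CPM at day 1, 8381 to 9433 CPM at day 3 and 8220 to 10916 CPM at day 7 in WT muscle. Of 11 stromal markers there, 3 were called higher and 4 lower at day 3 against day 1. At day 7 against day 1, 6 of them were called higher and 3 lower. In both genotypes 7 of 7 endothelial markers were called lower at day 3 than at day 1. The part of these cell types in the courses of Bmp2, Bmp4, Bmp1 and the other genes was not tested.

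Mutant and WT muscle did not differ in any of the 8 genes by a call. At day 1 0 of 8 were called (beside 0.0774% of 15499 genes), with none under 0.05 unadjusted. At day 3 0 of 8 were called beside 8.98% of all genes, with an unadjusted p under 0.05 for Bmp4 alone. Bmp4 measured 3.27, 2.85 and 2.23 CPM in mutant and 5.29, 4.13 and 5.46 CPM in WT muscle at day 3, without overlap (log2 -0.84, SE 0.327, edgeR adjusted p = 0.111). At day 7 0 of 8 were called beside 0% of all genes, with none under 0.05 unadjusted, and DESeq2 called none on any day. Elsewhere in the pathway at day 3, the receptors and co-receptors Acvr2b (log2 -1.67), Hjv (-1.51) and Rgma (-1.45) and the target gene Alpl (-1.45) fell in mutant muscle, while Id2 (0.74), Id3 (0.46) and Gdf15 (2.21) rose. All 9 fibre markers were called lower at day 3, summing to 4235 to 14733 CPM in mutant and 33878 to 55896 CPM in WT muscle, and their part was not tested.

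In uninjured muscle, heart and liver, genotype gave no call either. In quadriceps 0 of 8 were called beside 0% of 11856 genes, with an unadjusted p under 0.05 for Bmp6 alone (3.92, 2.23 and 2.47 CPM in mutant and 5.31, 3.77 and 5.39 CPM in WT mice, log2 -0.73, edgeR adjusted p = 0.758). In uninjured heart 0 of 8 were called beside 0% of 17064 genes, in heart 3 days after muscle injury 0 of 8 beside 0.0598% of 16735, and in liver 0 of 6 beside 0% of 14534. None had an unadjusted p under 0.05 in heart or liver, and DESeq2 called none in any of these 4 comparisons. Bmp3 and Chrdl1 were too low to test in liver, where Bmp3 was at 0 in 6 of 8 libraries.

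The 4 classical ligands were also read per kb in each tissue. In liver, where Bmp2 and Bmp6 are known to set iron uptake through hepcidin, Bmp2 measured 5.59 CPM per kb in mutant and 5.25 in WT mice, and Bmp6 0.582 and 0.407. In uninjured heart Bmp6 measured 1.90 CPM per kb in mutant and 2.22 in WT mice, below Bmp4 (2.35 and 2.91) and above Bmp2 (0.676 and 0.646). In quadriceps Bmp4 (2.00 CPM per kb in mutant and 2.09 in WT mice) and Bmp5 (1.95 and 1.64) lay above Bmp2 (0.737 and 0.708). Bmp5 was scarce in heart, at 0.119 to 0.269 CPM per kb over its 4 groups. Tissues were separate cohorts and were not tested against each other, and the Bmp6 values may hold reads of Txndc5.

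The genes whose levels were most like each member over the 15 MmSC groups, among 9702 annotated genes, were named by Pearson's r of log2 group means, as a description. Bmp4 was most like Rab3a (r = 0.98), Bmp5 most like Fmo5 (0.969), Bmp1 most like Col5a3 (0.955), Gdf10 most like Mafk (0.948), Chrdl1 most like C2 (0.947), Bmp6 most like Lyrm2 (0.932), Bmp3 most like Enpp3 (0.898) and Bmp2 most like Camk2d (0.86). Next came Wasf2 (0.974) for Bmp4, Enpp2 (0.961) for Bmp5, Ankrd35 (0.952) for Bmp1 and Raver2 (0.946) for Gdf10. Groups of the same cohort are not independent points, so these values mix cohort with treatment.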

How the data were processed

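RNA-seq was read from the deposited count table, which holds whole-number counts per gene symbol that the authors made with STAR 2.7.3a on mm10 and featureCounts, per the submitters' processing notes. The sources used here give neither the featureCounts version nor its strand setting. MmSC libraries came from small pools of sorted cells and whole-tissue libraries from 2 ng of RNA, per the labels' protocols. All rows name a gene, 78 columns were matched to a sample by title and 12 to a group by library name, and none was unused.

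For the comparisons and interactions, each of the cohorts was fitted alone with edgeR 4.0.16 in R 4.3.3 (limma 3.58.1): filterByExpr with a count minimum of 10, TMM scaling, robust quasi-likelihood fit and test, and Benjamini-Hochberg adjustment over all genes tested. Each of the 2 tests added later fitted the groups it used from 2 cohorts together, by the same steps. Levels (CPM) are counts scaled to the library total times its TMM factor, and the SE is the log2 value over the square root of F. There were 23 comparisons, 2 interactions and 2 tests added after the data were seen, and the procedure was tested on simulated data. Alternatives were no filter, RLE scaling, DESeq2 1.42.0, a replicate block, a fit to the groups compared only and leaving out each library. In the AEX cohort a term for Y-linked reads was a further alternative. Replicate numbers were not treated as pairs, since in no cohort did all same-numbered libraries deviate together at r over 0.1.

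The 9 genes and the 6 pathway and 12 marker lists were chosen with earlier results of these data known. The text names every member and, from each pathway list, the called genes with the largest changes. Depth limits the low genes most, and intervals from a count of 0 cover counting error only. Promoter windows are from RefSeq tables (GRCm38.p6).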

Additional observations from a re-analysis of the deposited data

Results flagged for a closer look

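In groups of 4 libraries, 3 of the 31 sets of values checked held a library far from the others. The cutoff gives about 1 in 20 by chance for normally distributed values. That rate need not hold for counts near 0, such as those of Bmp3 and Chrdl1 in liver, which were too low to test. Bmp3 had 0.3207 CPM in 1 mutant liver library and 0 in the other 3. Bmp6 had 5.597 CPM in 1 mutant TA library of day 1, above its 3 partners. Chrdl1 had 0.4543 CPM in 1 WT liver library, above its 3 partners.

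Bmp2 lay below vehicle in every library at 2 h of Yoda1 (log2 -1.379) and above vehicle in every library at 4 h (0.332) and 6 h (0.414). The difference between 2 h and 4 h was not tested. That between 2 h and 6 h was tested and came to log2 -1.820 for Bmp2, -0.872 for Bmp1 and -0.521 for Gdf10, each called by edgeR. In all, 438 pairs of responses were compared for such differences, and the 2 h libraries belong to another cohort than those of 4 h and 6 h.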

How the results depend on the processing

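No value called in either setting changed sign under an alternative, but values that were not called did, such as Bmp2 after AEX in wild-type MmSCs (log2 -0.19, and -0.52 to 0.07 without single libraries). Of the single-gene results, 2226 stayed on their side of the threshold, 49 lost a call and 40 gained one, and of the counts of called genes 285 stayed within 1.5 times and 32 moved. Without a filter on low counts 1 gene was called in WT MmSCs after AEX, 0 at 4 h of Yoda1 and 1 in WT TA at day 3 against day 1. DESeq2 called 1 in WT MmSCs after AEX, 1 in WT TA at day 7 against day 3 and 5 in the difference of 2 h and 6 h of Yoda1, and RLE scaling 2 and 5 in these last 2. Leaving out 1 library at a time gave 0 to 3 calls for AEX in wild-type MmSCs, 0 to 1 for AEX in WT MmSCs of the cohort with both genotypes, 0 to 1 for genotype after CTX, 2 to 5 for 2 h of Yoda1, 0 to 1 for 4 h, 1 to 3 for WT TA at day 3 and 0 to 2 at day 7 against day 3, and 2 to 5 for the difference of 2 h and 6 h. The causes were not tested. RLE and TMM scaling differed by at most 0.032 in the median log2 of all genes.

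With a replicate block, 2 genes were called at 4 h of Yoda1 (1 without it), 2 at 2 h and 2 at 6 h (3 each without it) and 1 in WT TA at day 7 against day 3 (0 without it). The losses were Gdf10 at 2 h (adjusted p = 0.218) and Chrdl1 at 6 h (0.0558), and the gains Bmp6 at 4 h (0.0458) and Bmp2 in WT TA (0.0269). In mutant TA at day 3 against day 1, Bmp1 was lost (0.0762) and Gdf10 gained (0.0292). The numbers share no stated source, and correlations of same-numbered deviations ran from -0.305 to 0.447 over the cohorts. No paired analysis was possible for the cohort with both genotypes and AEX because its titles and library names disagree, so the numbers in its columns could be tied to no sample.

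Depth limits Grem1, with 5 libraries above 3 counts, and the 2 h Yoda1 group, whose shallower library held 1806248 counts. Where leaving out a library leaves 1 in a group, that library is assumed to vary like the others.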
